A study of Drosophila melanogaster with 2 samples.

Results

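The genes described are 39 named genes of DNA replication and the cell cycle in Drosophila melanogaster, set against vvl-eGFP binding sites in whole embryos. They were taken by gene name, and each was given a window of its gene body with 2000 bp on each side. By name 38 of the 39 were found among 13945 protein-coding genes. The symbol lat has no gene of that name in the annotation. Chromatin immunoprecipitation was done with an anti-GFP antibody on embryos aged 0 to 24 h from a strain with an insertion that tags ventral veins lacking (vvl) with eGFP. vvl encodes a POU-domain transcription factor. Both samples, biological replicates 1 and 2, carry the same insertion and make up 1 group, with no untagged or input sample used here. The 2 samples name the same donor strain, and the antibody field of the labels names vvl where their text names GFP. Embryos were processed whole, so a site bound strongly in few cells and one bound weakly in many cannot be told apart. The peaks are the authors' conservative list of 8309 peaks in dm6 coordinates, each with a summit and a signal. The signal comes from the authors, on a scale that no source used here states, and serves only to rank peaks within a list. With 1 group there is no test, and the main counts of genes stand beside the same counts over all protein-coding genes.

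Replication starts where the origin recognition complex (ORC) loads the MCM helicase ring onto DNA, helped by the licensing factor Cdt1 (dup in flies) and held back by geminin. Cyclin-dependent kinases then fire the origins and later drive mitosis, and the cyclins, the Cdc25-type phosphatases string (stg) and twine (twe) and the inhibitor dacapo (dap) set when each kinase is active. In flies the heterodimers of E2f1 or E2f2 with Dp bind gene starts of many replication genes, and the retinoblastoma protein Rbf holds them in check. Many promoters of this class also carry the DNA replication-related element (DRE), which the factor Dref binds. In the embryo the first divisions run on maternal products, and later divisions wait for zygotic string.

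The sequences that follow hold DRE, M1BP, POU octamer or E2F words. The sequences lie at or beside members' summits where the distance to the summit is given, and near the start of 2 members without a summit. They are from the RefSeq Release 6 assembly, which has the arm names and lengths of dm6, and are written 5′ to 3′ with the word in capitals. The first pair hold the DRE word TATCGATA at the starts of Orc2 (chr3R:13964654-13964721, plus strand, word 39 bp from the summit) and Cdk2 (chr3R:20735532-20735599, plus strand, 2 bp from the summit).
Orc2: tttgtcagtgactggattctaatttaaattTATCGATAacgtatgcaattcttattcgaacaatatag
Cdk2: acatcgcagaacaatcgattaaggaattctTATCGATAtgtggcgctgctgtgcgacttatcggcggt
The next holds the M1BP word GGTCACAC, read on the other strand, and the DRE together upstream of Mcm3 (chrX:5322697-5322779, plus strand, 29 bp and 12 bp from the summit), at the start of the neighbouring gene Rnp4F. The one after it holds the M1BP word at the start of CycB3 (chr3R:24870835-24870902, minus strand, 8 bp from the summit).
Mcm3: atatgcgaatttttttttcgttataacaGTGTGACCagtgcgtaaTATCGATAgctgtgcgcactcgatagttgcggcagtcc
CycB3: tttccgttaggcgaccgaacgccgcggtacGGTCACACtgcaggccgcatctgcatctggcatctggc
The POU octamer ATGCAAAT, here read on the other strand, lay 32 bp from a summit in an intron of fzr (chrX:4671575-4671642, minus strand).
fzr: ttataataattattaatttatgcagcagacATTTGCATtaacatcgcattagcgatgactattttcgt
The E2F words are shown in 30 bases each. Mcm2 (chr3R:8264995-8265024, plus strand) has its word 94 bp from a summit. Mcm6 (chrX:6674389-6674418, plus strand, word on the other strand) and RnrL (chr2L:10327923-10327952, minus strand) have theirs near a start site in windows that held no summit.
Mcm2: ttagcaaacatTTTCCCGCgcattttcgca
Mcm6: gtcagaaaaagGCGCCAAAaccgagcaaag
RnrL: aatgactttaaTTTGGCGCctttttgtgct

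A summit lay in the window of 29 of the 38 members, or 76.3%, against 6556 of 13945 protein-coding genes, or 47.0%. Members were somewhat longer than other genes, with a median window of 6884 bp against 6166 bp. Protein-coding genes of the same window-length classes held a summit in 51.2% of cases, which over 38 genes corresponds to 19.4. Summits within 500 bp of one of the gene's own annotated start sites were found for 21 members, or 55.3%, against 28.7% of all protein-coding genes and 32.9% of those in the same length classes. For 18 members, or 47.4%, their own coding start was the nearest one to some summit, inside the window or not, against 31.7% of all protein-coding genes and 34.2% of those in the same length classes. The summit lay inside the window for 17 of the 18, and for grp it lay outside. The shares kept their order when the window was the gene body alone, with 12 members or 31.6% against 17.4% of all genes.

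**Figure D1:**
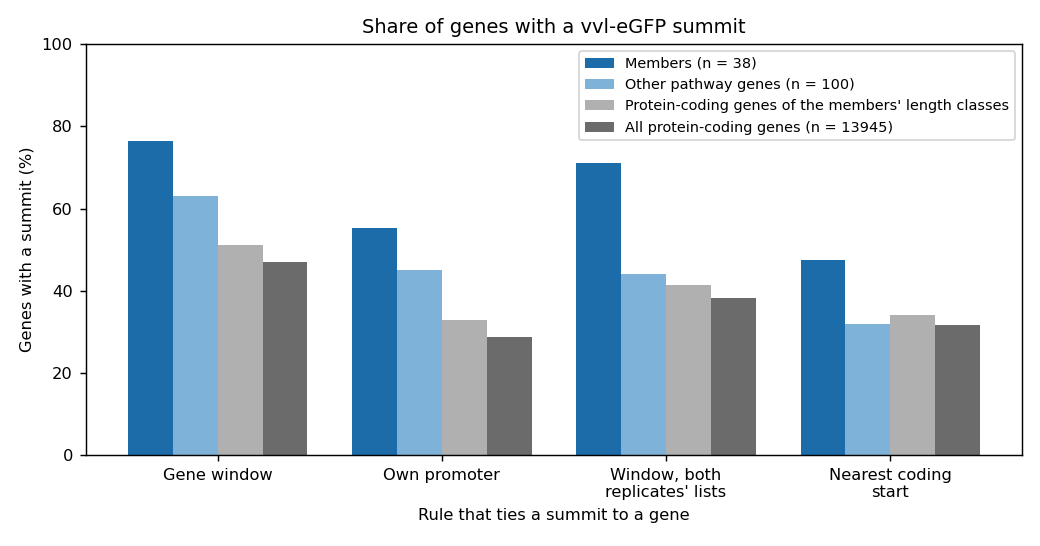
Share of genes (%) with a vvl-eGFP summit under 4 rules that tie a summit to a gene, for the members, the other pathway genes, protein-coding genes of the members' length classes and all protein-coding genes. The members' bar was the tallest under each rule, at 76.3% for the window, 55.3% for the own promoter, 71.1% for both replicates' lists and 47.4% for the nearest coding start.

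The windows of the 29 members held 50 summits, none of them counted for more than 1 member. Of these, 23 lay within 500 bp of the member's own start, 10 in one of its introns, 1 in an exon outside coding sequence, 6 in the upstream flank and 10 in the downstream flank. The promoter summits had a median position 79 bp upstream of the start, and 20 of 23 (87.0%) were upstream. Values over all genes were close, with a median of 93 bp upstream and 78.6% upstream over 4688 pairs of gene and promoter summit. A summit near the starts of several genes was counted there for each of them. Of the 21 members with a promoter summit, 11 had one that no other coding start shared and 10 shared theirs with another gene that starts within 500 bp. Another 5 members had a summit at a neighbour's start and none at their own. This split was not counted over all protein-coding genes, so whether it differs from theirs is not known. Head-to-head neighbours, with a coding start on the other strand within 1000 bp, were present for 20 members (52.6%) against 36.2% of protein-coding genes. What that arrangement contributes to the members' counts was not tested. In 10 members (26.3%) the window held 2 or more summits, against 20.9% of all genes.

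**Figure D2:**
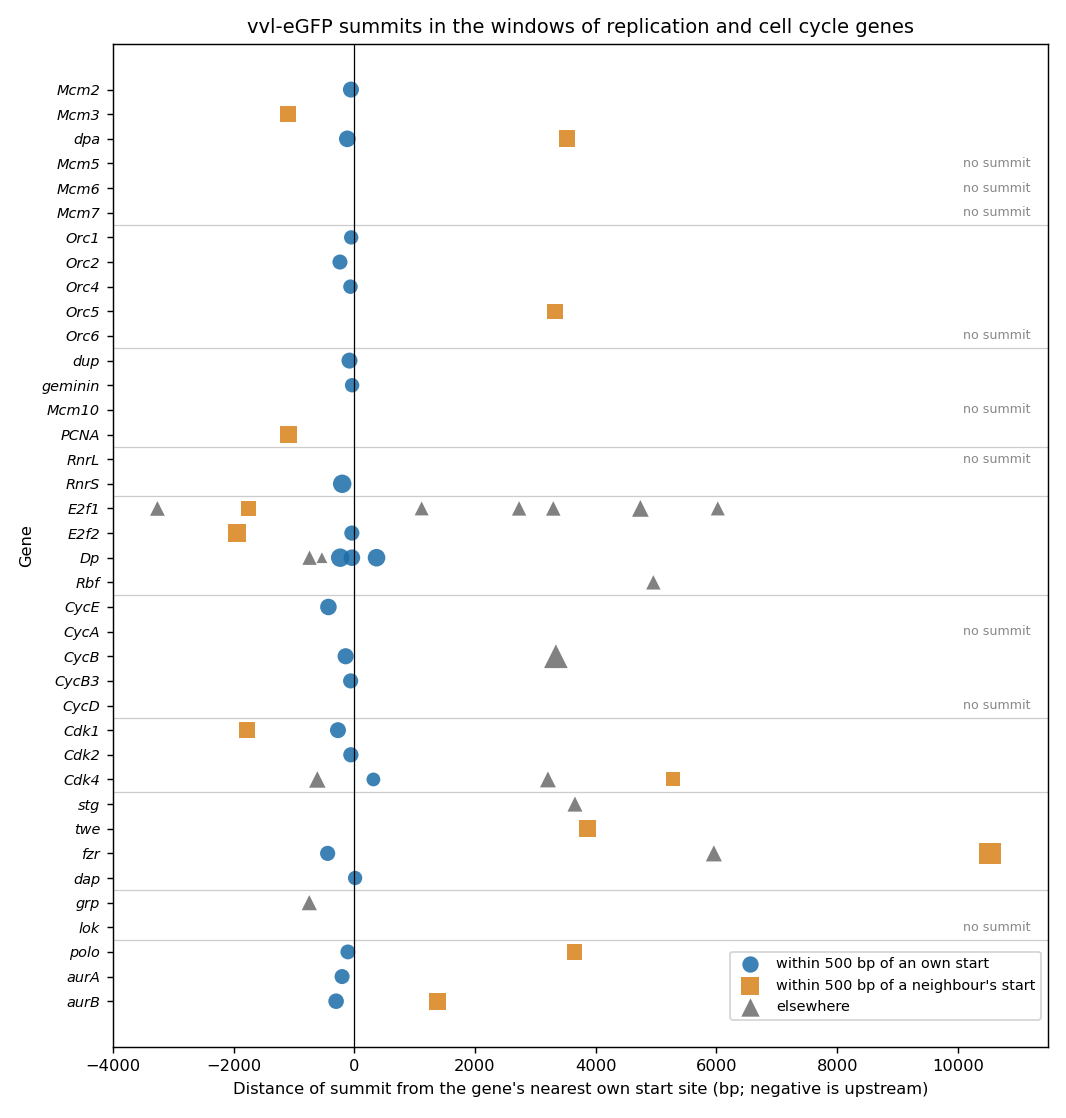
Position of each of the 50 summits relative to the nearest own start site of the member (bp, negative is upstream), with members grouped by role and marker size rising with the authors' signal. Circles near 0 are the 23 own-promoter summits, squares lie at a neighbour's start, and 9 members have no summit.

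Among the 6 subunits of the MCM2-7 helicase, which unwinds DNA at the fork, 3 had a summit and 3 did not. The Mcm2 summit lay 55 bp upstream of its start (peak chr3R:8264821-8265008, signal 193, rank 2534 of 8309). The start of RPA1, which encodes the large subunit of the single-strand binding protein, is within 500 bp of it. The Mcm2 peak had signal 63.7 in replicate 1 (rank 7449 of the 73622 in its ranked list) and 145 in replicate 2 (rank 1096 of 90260). Each replicate's own list held the peak, and it stood higher in replicate 2. The dpa gene, which encodes Mcm4, had a summit 115 bp upstream of its start (chr2R:7499941-7500078, signal 236) that the start of didum shares. A second dpa summit of signal 242 lay downstream, 5 bp from the start of CG1620. Mcm3 had its summit 1098 bp upstream (chrX:5322559-5322954, signal 179), 61 bp from the start of Rnp4F, in the sequence with both a DRE and an M1BP word given above.

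Of the 5 ORC subunits found by name, Orc1, Orc2 and Orc4 had a promoter summit, Orc5 had one only at neighbours' starts, and Orc6 had none. Their signals stood between percentiles 25.9 and 58.6 of the list. Orc1 had a summit 51 bp upstream of its start with signal 105 (rank 6157), and replicate 2's list did not hold it: in that replicate's ranked list its −log10 of the irreproducible discovery rate (IDR) was 1.35, under the threshold of 2, against 2.55 in replicate 1. The Orc2 summit, 237 bp upstream and shared with the start of Kots, had signal 138. The Orc4 summit, 63 bp upstream and shared with the start of CG12849, had 113. For Orc5 the summit lay 3325 bp downstream of the start, 57 bp from the starts of GatC and PolG2, with signal 161. Orc3, for which the RefSeq gene table gives lat as a synonym, is described here outside the counts because the table gives the same synonym to another gene. Its window held no summit of the conservative list, and its best ranked peak had signal 82.8 and a −log10 IDR of 1.69, 23 bp upstream of a start.

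Among the licensing and fork factors, dup and geminin, which act against each other on MCM loading, both had a promoter summit. The dup summit (chr2R:15380639-15380765, signal 191) lay 79 bp upstream of dup and 31 bp from the start of SRPK. The geminin summit, 36 bp upstream, had signal 108 and was listed in replicate 2 only, with a −log10 IDR of 0.771 in replicate 1 and 3.32 in replicate 2. PCNA, the sliding clamp of the polymerases, had a strong peak 1086 bp upstream of its start (signal 299, rank 1205), with its summit 10 bp from the start of the ribosomal protein gene RpS18. Mcm10, a helicase cofactor, had no summit. The 2 subunits of ribonucleotide reductase, which makes deoxynucleotides, differed: RnrS had a promoter summit 200 bp upstream (chr2R:11985445-11985694, signal 387, rank 737, with 213 in replicate 1 and 160.3 in replicate 2), and RnrL had none. The RnrS summit is shared with the start of CG34231.

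All 4 members of the E2F and Rbf group had a summit, and they held 15 of the 50. Dp, the shared partner of both E2F proteins, had 5 summits between chr2R:13222306 and chr2R:13224983. Its 3 promoter summits had signals of 392 (rank 722), 307 and 226, lying 233 bp upstream, 369 bp downstream and 39 bp upstream of the nearest Dp start. The first of them had 210.5 in replicate 1 and 208 in replicate 2. Both other Dp summits were in introns, with signals of 107 and 15.7, the last having no summit of either replicate's ranked list within 100 bp.

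E2f1, the activating E2F, had 7 summits over a gene of 40568 bp, none of them within 500 bp of an E2f1 start. Of these, 5 were in introns, 1 in an exon and 1 upstream at the start of Archease. The highest had signal 238 (rank 1801, 114 in replicate 1 and 119 in replicate 2) and lay 4740 bp downstream of the nearest E2f1 start. The other intronic and exonic ones had signals of 122, 114, 108, 93.0 and 90.3. Replicate support was uneven, with 2 of the 7 peaks in both replicates' lists (signals 238 and 108) and the peak of signal 90.3 in neither. E2f2, the repressive E2F, had a promoter summit of signal 142, 40 bp upstream and 16 bp from the start of Mpp6. That peak was listed in replicate 2 only, with a −log10 IDR of 1.96 in replicate 1 and 4.30 in replicate 2. E2f2 also had a stronger peak of signal 406 (rank 676, chr2L:21158553-21158787, 241 in replicate 1 and 163 in replicate 2), 1942 bp upstream at the starts of Coq3 and Pld3. Rbf had 1 summit of signal 108 in its downstream flank, with no coding start within 500 bp.

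CycB, a mitotic cyclin, held the highest-signal peak of all members. The peak lay in the 3′ flank at chr2R:22802818-22803127, with signal 1219 (rank 70 of 8309), 645 in replicate 1 and 576 in replicate 2. It ranked 72 in each replicate's ranked list. Its summit was 3340 bp downstream of the start of CycB, which is nonetheless the nearest coding start, and no coding start lay within 500 bp. CycB also had a promoter summit 143 bp upstream (chr2R:22806893-22807288), of signal 199, with 113 in replicate 1 and 79.5 in replicate 2.

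The other cyclins were split. CycE, the S-phase cyclin, had a summit 428 bp upstream of its nearest start (chr2L:15746931-15747087, signal 226, 110.2 in replicate 1 and 92.8 in replicate 2). CycB3, a mitotic cyclin, had one 60 bp upstream (signal 143, 94.7 in replicate 1 and 51.5 in replicate 2), with the M1BP word of the sequence above. CycA, which acts in S phase and at mitotic entry, and CycD, the partner of Cdk4, had none.

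Each of the 3 Cdk genes had a promoter summit. Cdk1, the mitotic kinase, had one 270 bp upstream of its start with signal 188, shared with mRpS7, and another of signal 178 at the start of da. Cdk2, the partner of cyclin E, had 1 summit 56 bp upstream with signal 149.7 (90.2 in replicate 1 and 64.3 in replicate 2), not shared with another start and beside the DRE shown above. Cdk4 had 4 summits, the highest of signal 222 at 612 bp upstream, and its promoter summit was the weakest at 84.7. That promoter peak was listed in replicate 1 and not in replicate 2, where its −log10 IDR was 0.215.

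The regulators of the Cdks all had a summit in their windows, though at their own starts only for fzr and dap. For fzr, which encodes the Cdh1-type activator of the anaphase-promoting complex, 3 summits were found. The strongest had signal 759 (rank 187, chrX:4666838-4667170, 404 in replicate 1 and 334 in replicate 2), just past the 3′ end and 303 bp from the start of CG3009. The intronic fzr summit with the octamer had signal 196 (138 in replicate 1 and 59.6 in replicate 2), and the promoter summit, 441 bp upstream, had 143. The dap summit lay 14 bp downstream of its start with signal 104, the weakest best peak of the 29 members. For stg the only summit, of signal 136, was in the 3′ flank 3656 bp from its start, and SP1029 had the nearest coding start. For twe the only summit was also in the 3′ flank, of signal 280.0 and 105 bp from the start of EndoGI.

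Of the checkpoint kinases, grp (Chk1) had an intronic summit of signal 143, which lay 745 bp upstream of the nearest grp start, and lok (Chk2) had none. The 3 mitotic kinases all had promoter summits. The polo summit lay 106 bp upstream with signal 129 (68.5 in replicate 1 and 61.8 in replicate 2). A second polo summit of signal 151, in the 3′ flank, was 67 bp from the start of alphaSnap. Its peak was listed in replicate 1 and not in replicate 2, where its −log10 IDR was 0.162. The aurA summit, 202 bp upstream with signal 137, shared the start of CG3281. The aurB summit, 301 bp upstream with signal 165, shared that of Stam, and aurB also had a peak of signal 255 at the start of Dnz1.

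The 9 members without a summit were Mcm5, Mcm6, Mcm7, Mcm10, Orc6, RnrL, CycA, CycD and lok. None had a peak past the IDR threshold in the ranked list of both replicates, which holds 81948 entries. The nearest to it was lok, with a signal of 82.4 and a −log10 IDR of 1.98, 126 bp upstream of its start, and lok does have a summit in the authors' broader list of 11692 peaks. The best entries of Mcm5, Mcm6, Mcm7, Orc6, RnrL and CycA in that ranked list had signals of 35.3 to 60.2 and −log10 IDR values of 0.458 to 1.52. CycD had no entry in any of the 3 ranked lists examined, as did 8.05% of protein-coding genes, and Mcm10 had entries in replicate 1 alone. Whether reads can be placed in the CycD window cannot be read from peak lists.

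The highest-signal peak of a member stood at a median percentile of 68.1 among the 8309 peaks, with a range of 25.3 to 99.2, against 68.7 over all protein-coding genes with a summit. The order of those medians turned with the list. It was 58.2 for members against 70.1 for all genes in replicate 1's list alone and 70.8 against 67.5 in replicate 2's.

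Of 11 words sought on both strands within 100 bp of a summit, the E2F words differed most between members and all genes. Any of TTTCCCGC, TTTGGCGC, TTTGCCGC and TTTCGCGC was near a summit in 6 of the 29 members with a summit (20.7%), against 7.38% of the 6556 protein-coding genes with one. TTTGGCGC alone was near the promoter summits of Orc1, Orc4, dpa and dup, so 13.8% of members against 2.52% of genes with a summit. Mcm2 had TTTCCCGC and aurB had TTTCGCGC, the aurB word lying at the start of its neighbour Dnz1. Within 50 bp of the summit the E2F count was 1 of 29, or 3.45%, against 3.52%, so most of these words lay between 50 and 100 bp from the summit.

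The same words in promoters, from 250 bp before to 50 bp after each start, were found in 16 of the 38 members (42.1%) against 8.72% of all protein-coding genes. These were Mcm2, Mcm3, dpa, Mcm5, Mcm6, Orc1, Orc4, Orc5, Orc6, dup, RnrL, RnrS, CycE, CycB, stg and grp. TTTGGCGC was in the promoters of 11 members (28.9%) against 3.16% of genes. TTTCCCGC was in those of Mcm2, Mcm3 and dpa (7.89%) against 1.99%, TTTGCCGC in those of Mcm5, RnrL and RnrS (7.89%) against 2.45%, and TTTCGCGC in that of Orc6 (2.63%) against 1.62%. A promoter summit was present in 8 of the 16 members with such a word and in 13 of the 22 without one (59.1%). Over all protein-coding genes it was present in 38.3% of those with the word and 27.8% of those without. Among members the share with a promoter summit was thus not higher where the promoter held an E2F word, with few genes on each side.

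The DRE word lay near a summit in 3 members, Cdk2, Orc2 and Mcm3, or 10.3% against 11.9% of genes with a summit. In promoters it was found in 6 members, Cdk2, Cdk4, CycA, Orc2, Orc5 and PCNA, or 15.8% against 10.2% of all protein-coding genes. A promoter summit was present in 3 of those 6 members and in 18 of the 32 without the word (56.2%), against 44.8% and 26.9% over all genes. The M1BP word was near summits of CycB, CycB3, Mcm3 and polo, 13.8% against 8.82%. The polo one lay at the start of alphaSnap.

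The POU octamer, the word known for the class of factor that vvl belongs to, was near a summit in 2 members, Dp and fzr, or 6.90% against 9.87% of genes with a summit. Both of those summits were intronic. The nearest coding start was 741 bp away for the Dp summit, a start of Dp itself, and 4876 bp away for the fzr summit. The GAGA word GAGAGAG was near summits of E2f1 and dap (6.90% against 8.63%). The homeodomain core TAATTA was near summits of 7 members (24.1% against 26.5%). The word TTTGAA, known as the cell cycle homology region of mammalian promoters, was near summits of 15 members, 51.7% against 44.0%, and ACACTG near those of 12, 41.4% against 30.7%.

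**Figure D3:**
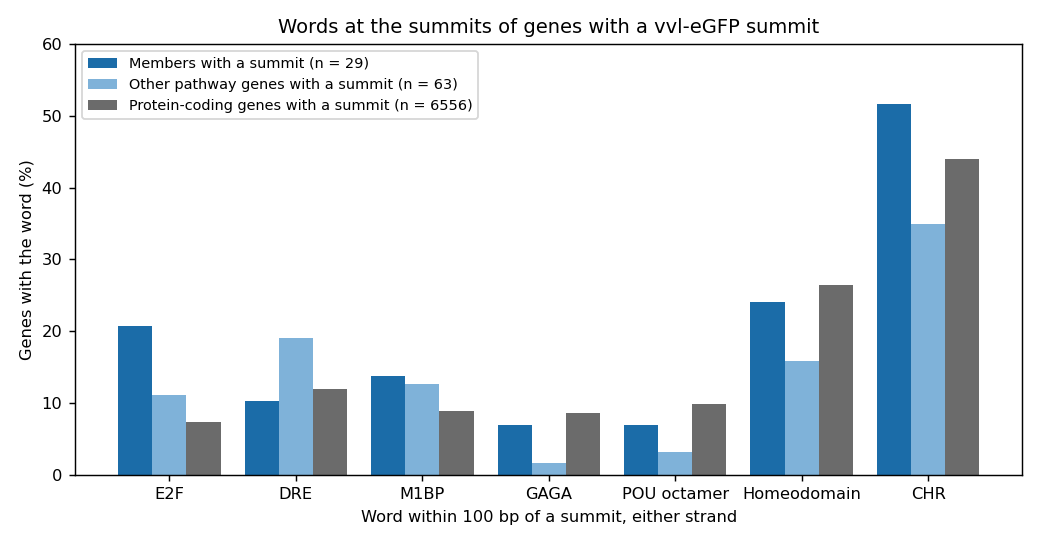
Share of genes (%) with a word within 100 bp of a summit, on either strand, for members with a summit, other pathway genes with a summit and protein-coding genes with a summit. E2F words were near a summit in 20.7% of members against 7.38% of all genes with a summit, and the POU octamer in 6.90% against 9.87%.

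Replicate agreement was read from each replicate's own list, of 9050 peaks in replicate 1 and 7098 in replicate 2. A summit lay in the window in both lists for 27 members (71.1%) against 38.3% of all protein-coding genes. The replicates gave 28 members each, 73.7%, against 46.3% of genes in replicate 1 and 45.5% in replicate 2. Orc1 was missing from replicate 2's list and geminin from replicate 1's, with percentiles of 25.9 for Orc1 and 28.9 for geminin in the conservative list. Of the 50 peaks, 44 overlapped a peak of replicate 1, 44 one of replicate 2 and 39 both. This overlap was not counted over all conservative peaks, so it describes the members' peaks only. Signals could be paired for 48 of the 50 peaks, by a summit within 100 bp in each ranked list, and had a Spearman rho of 0.558 between replicates, against 0.625 over 7297 of all conservative peaks. These coefficients are across peaks of the same 2 libraries and describe them only. Ranks were also compared relative to the length of each ranked list, 73622 entries in replicate 1 and 90260 in replicate 2. By that measure 34 of the 48 pairs (70.8%) stood higher in replicate 2, against 64.4% over all paired peaks. An equal rank, such as that of the CycB 3′ peak, counts as higher in the longer list of replicate 2.

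**Figure D4:**
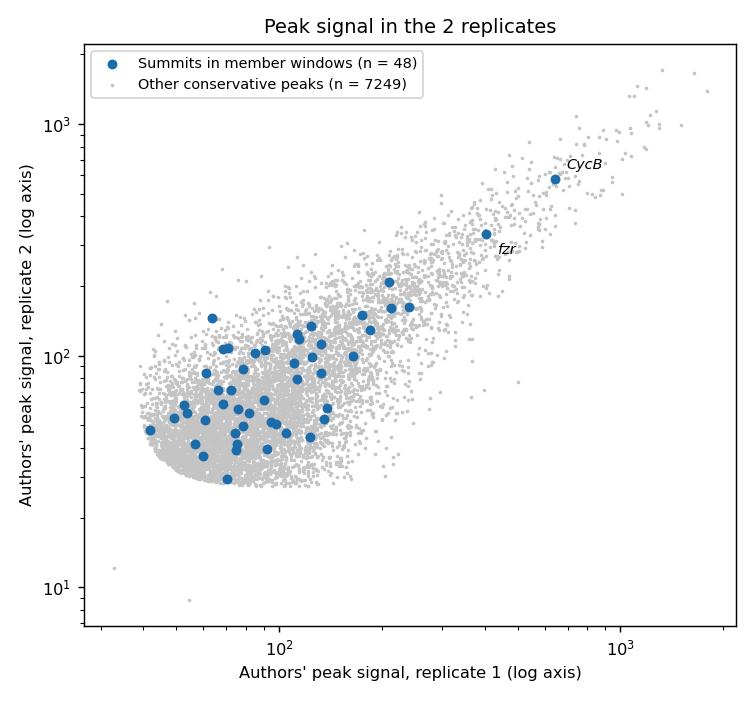
The authors' peak signal in replicate 2 against that in replicate 1, both on log axes, for 48 summits in member windows and for the other conservative peaks paired in both ranked lists. The CycB 3′ peak (645 in replicate 1 and 576 in replicate 2) and the fzr peak at CG3009 (404 and 334) stand highest among the members.

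A wider list of 100 other replication and cell cycle genes held a summit in 63 cases (63.0%), against 47.0% of all genes and 49.2% by length class. In both replicates' lists the share was 44.0%, nearer to the 38.3% of all genes and 39.8% by length class. At their own promoter it was 45 of the 100 (45.0%), against 28.7%. By nearest coding start it was 32.0% against 31.7% of all genes, so that share was at the background, and 66.0% of these genes have a head-to-head neighbour. All 7 genes grouped under E2F and the MuvB complex (Rbf2, mip120, mip130, mip40, lin-52, Myb and Dref) had a summit. For mip130, mip40, lin-52 and Dref the highest-signal one had another gene's coding start nearest (Edem1, Tab2, CG15771 and RpL13). For Rbf2 and mip120 it was their own start, and Myb was tied with CG46440. A summit was also found for 7 of 8 spindle checkpoint and centromere genes and 8 of 10 polymerase genes. Summits were found for 7 of 10 cytokinesis and spindle genes, 6 of 9 helicase activation genes, 4 of 6 DNA damage checkpoint genes and 11 of 20 cyclin, Cdk and regulator genes. They were found for 7 of 14 fork genes and 4 of 9 genes of the anaphase-promoting complex, near the share over all genes, and for 2 of 7 cohesin and condensin genes. The highest signals in their windows were at Caf1-55 (2203), chif (1319), PolD1 (1298), mei-41 (619), Cdc16 (589) and Ctf4 (502). Of these 6, only chif and Cdc16 had the nearest coding start, with Art3, Arl1, TH1 and CG8067 nearest for the others. The DRE was near a summit in 12 of the 63 (19.0%), against 10.3% of members and 11.9% of all genes with a summit. The shared Mcm2 and RPA1 summit is the 1 summit that counts in both lists.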

How the data were processed

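Chromatin immunoprecipitation sequencing gave peak lists for 2 replicates of vvl-eGFP embryos, with chromatin sonicated to 200 to 800 bp per the labels. Per the deposited text files, lists of the series used both replicates' alignments, and those of a replicate its own alignments. The software for alignment and peak calling is not given in the sources used here. The authors gave each peak a signal, a score (at least 830 in the deposited thresholded lists), a summit offset and positions in dm6. In addition, a −log10 IDR stands in the deposited ranked lists, and thresholded peaks have 2 or more (IDR of 0.01 or less). The ranked lists' 8 further unnamed columns were not used. Without read counts the depth is unknown, so no counting interval is given.

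Summits were joined in Python 3.11.15 with pandas 2.3.3 to genes of Ensembl release 115 on 6 arms. Length classes were 20 quantiles of window length. Ranked peaks past the threshold but absent from the conservative list (184, of which 3 lie near E2f1) were left out. Other pathway genes came from 106 symbols, of which 9 matched by RefSeq synonym, 2 had no single match and 4 named a gene already listed. The counting was tested on simulated data. All members are named, and values are given for those with a summit, while most of those without one are given by range. Of the other pathway genes, signals are given for the 6 with the highest. Members, lists and words were chosen with earlier results of these data known. The E2F counts' alternatives, the count by nearest coding start, the addition of passing peaks and Orc3 as lat were added after seeing the data.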

Additional observations from a re-analysis of the deposited data

How the results depend on the processing

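Of 47 alternatives to the main counts and medians, 35 stayed within 1.5 times the count or 1 SD of the median between replicates. That SD, 8.91, comes only from the 2 single-replicate medians (70.8 and 58.2). Both are themselves among the alternatives, so it is no independent measure. The members' share was above that of all genes in every window and promoter setting run. The window count was 12 for the gene body alone (31.6% against 17.4%), 18 by nearest coding start (47.4% against 31.7%), and 28 from either replicate's list alone (73.7% against 45.5% to 46.3%). The promoter count was 13 among the 4154 highest-signal peaks (34.2% against 17.3%) and 20 from either replicate (52.6% against 27.4% to 27.8%). The median percentile changed its order against all genes: it was 53.0 against 62.5 among those 4154 peaks and 58.2 against 70.1 without replicate 2, but 70.8 against 67.5 without replicate 1, 84.0 against 79.1 with 10000 bp of flank, 76.1 against 72.1 in the broader list and 67.7 against 63.3 for the gene body alone. The other pathway genes gave 34 (34.0% against 32.3% of all genes) among the 4154 highest-signal peaks, 16 (16.0% against 17.4%) for the gene body alone, and 51 (51.0% against 46.3%) to 62 (62.0% against 45.5%) with 1 replicate left out. The DRE count was 0 of 12 for the gene body alone (against 4.11%), 6 with 10000 bp of flank (18.2% against 17.3%), 6 with ATCGATA in place of TATCGATA (20.7% against 22.4%), and 3 (10.7% against 10.7%) to 4 (14.3% against 12.2%) with 1 replicate left out. The E2F count at peaks was 1 within 50 bp (3.45% against 3.52%) and 5 (17.9% against 7.04%) to 7 (25.0% against 8.27%) with 1 replicate left out. The cause was not tested, beyond the smaller windows, lists and distances themselves. Of 228 calls of single members under alternatives, 196 were kept; of the 32 that changed, 17 were under the gene body alone and 8 under the highest-signal peaks. With Orc3 counted as lat, 29 of 39 members (74.4%) had a summit. No paired analysis was possible because the design has 1 group and its results come from no test.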

Other observations

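The highest-signal peak in a member's window, 3′ of CycB, was the only peak of the 50 above signal 1000, and no start site of a coding gene lay within 500 bp of its summit. Among the 16 flank summits of the members, 12 lay within 500 bp of a neighbour's coding start, and the other 4 were those of CycB, Rbf and stg and the upstream one of Cdk4. The same share was not counted for the flank summits of all protein-coding genes. The downstream Cdk4 summit lay 23 bp from the start of RpLP2. A CycE promoter held TTTGGCGC at 2 places in exonic sequence, 88 bp and 111 bp upstream of its nearest start, while its summit lay 428 bp upstream.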
